A study of Homo sapiens with 12 samples.

Results

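The interaction of QTP and radiation was measured as the difference between what both treatments did together and the sum of what each did alone. For each gene it is Combo minus IR minus Rx plus Con on log2(FPKM + 1), where FPKM is the number of reads scaled to gene length and library. A value of 0 means that the log2 effects of QTP and of radiation added up in Combo, a negative value that Combo lay below their sum and a positive value that it lay above. Members were the protein-coding genes whose FPKM averaged 1 or more across all 12 libraries. They were 10751 of the 13038 tested genes, and the deposited table held 58735. The genes closest to that limit were IQCH, LIN52 and HBEGF inside it and L3MBTL4, ZNF658 and UBAP1L outside it.

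The cells were MSTO-211H, a human line established from mesothelioma, which was grown as floating cells in a medium with growth factors and which the submitters describe as mesothelioma-initiating. The 4 groups of 3 libraries were Combo (10 µM QTP and 4 Gy), IR (vehicle and 4 Gy), Rx (10 µM QTP and a sham exposure) and Con (vehicle and a sham exposure). QTP is named only so in the labels, it was given the day before radiation, and RNA was taken 48 h after it. The labels do not define Rx and Combo, which were read as the arms that the titles Con and IR leave. Whether a group's 3 libraries stem from separate cultures is not stated in the labels, so every p-value here measures a spread between libraries that may be technical. All cells were of 1 line, and in bulk RNA fewer cells of a kind and less RNA per cell cannot be told apart.

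Ionising radiation breaks DNA, and cells answer through p53, which induces genes such as CDKN1A that halt the cell cycle, and through repair by homologous recombination or end joining. Cells short of cholesterol in the endoplasmic reticulum release the SREBP transcription factors, which induce the enzymes of cholesterol and fatty acid synthesis together. Ribosomal protein genes form another group that is transcribed and translated in step, since each ribosome needs its proteins in fixed proportion.

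Recovered whole reads numbered 13188257 to 18630958 per library. Combo had 18109511 ± 608132 reads, IR 14861985 ± 722160, Rx 17253387 ± 2019535 and Con 15216794 ± 1757178 (SD, n = 3). On the first principal component of the tested genes, which held 26.5% of the variance, IR 3 stood at one end (28.7) and Combo 3 at the other (-21.5). The interaction of these scores was -23.3 with all 12 libraries and -9.18 without IR 3 and Combo 3. This drop was fixed by the choice of libraries, since they stood at the ends that Combo minus IR subtracts. IR 1 lay at -12.5, on the other side of 0 from IR 2 and IR 3. Each list median that moves by more than 1.5 times without IR 3 and Combo 3 is given that way too, as a description. Of 16 mesothelial markers 6 were measured and 5 averaged under 0.1 FPKM. Among 16 immune, endothelial and fibroblast markers, 14 were under 0.1 FPKM on average and 2 were measured, one being PDGFRB, a growth factor receptor gene, at 1.21 to 1.94 FPKM over the libraries.

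No gene passed the test of the interaction. With limma's moderated test and Benjamini-Hochberg adjustment over 13038 genes, 0 genes had an adjusted p under 0.05 (0%), and the lowest adjusted p was 0.609. Limma's voom on the recovered reads also gave 0, with 1100 genes at an unadjusted p under 0.05. At an unadjusted p under 0.05, limma gave 733 members (6.82%), of which 590 were negative (5.49%) and 143 positive (1.33%). Over all 13038 tested genes the share was 7.63%. The size of this split depended on the library scaling, and its direction turned with TPM only. After FPKM were rescaled to the same sum in each library (TPM), the median of all members moved by 0.16, to 0.13. The same count was then 583 positive and 73 negative. Each list median given with TPM below stands against that 0.13. By limma, 88.9% of members at this level were then positive, against 19.5% with FPKM as deposited. With the median of ratios the count was 203 positive and 474 negative, and with quantile normalisation 189 positive and 352 negative. Without IR 3 and Combo 3 limma gave 23 positive and 121 negative members, and without IR 1 it gave 665 and 1442.

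The interactions were small. The 25th and 75th percentiles were -0.16 and 0.09 and the median -0.04, and 41.9% of members were positive. The median standard error was 0.14, against 0.0992 for the difference between Rx and Con, since the interaction carries the error of all 4 groups. Only 162 members lay beyond 0.5 in size, 83 of them positive, and 3 beyond 1. The extremes were SYCE3, which encodes a protein of the meiotic synaptonemal complex, at -1.36 and ANKRD36C at 1.03, both named after their values were seen. SYCE3 rested on 17 to 54 reads per library. ANKRD36C had 3.20, 3.23 and 3.69 FPKM in Combo, 3.51, 1.75 and 0.651 in IR, 2.01, 1.08 and 3.28 in Rx and 2.96, 2.17 and 3.45 in Con, so its value came largely from a spread within IR and within Rx.

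**Figure D1:**
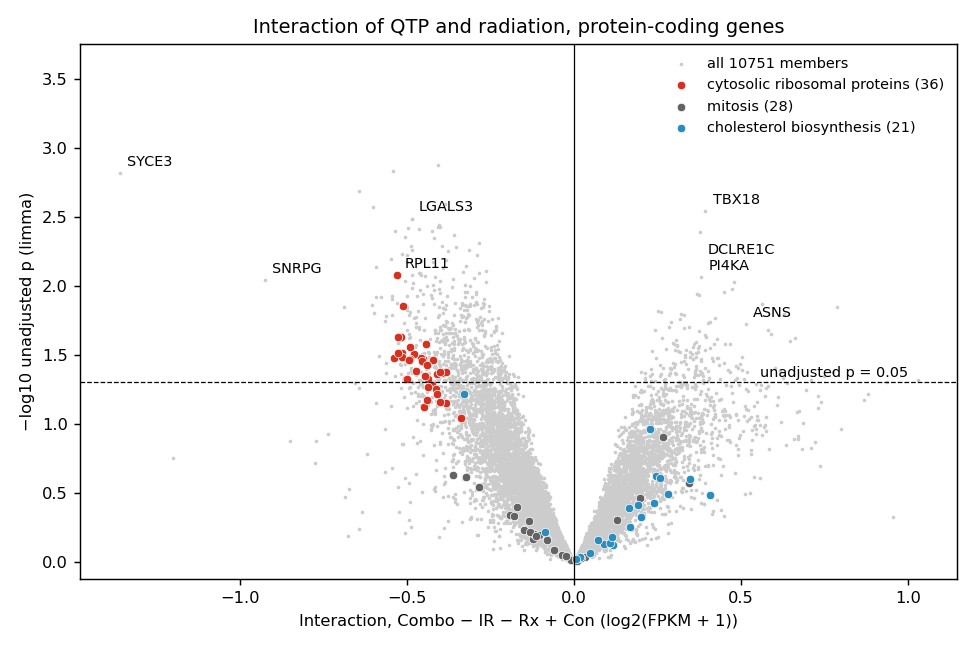
Interaction of each protein-coding gene (x axis, log2(FPKM + 1)) against its unadjusted p (y axis, minus log10, limma). Grey points are all 10751 members, coloured points are members of 3 gene lists, and the dashed line marks an unadjusted p of 0.05. The 36 ribosomal protein genes lie together left of 0, with 27 above the line, and no gene passed after adjustment.

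The order of the groups differed between the members on either side. Among the 590 negative members at an unadjusted p under 0.05 (5.49% of all members), Combo had the lowest mean of the 4 groups in 496 and IR the highest in 484. Over all members, Combo was lowest in 4127 and IR highest in 3420. Among the 143 positive ones (1.33%), Combo was highest in 113 and IR lowest in 105. These members were chosen by the sign of the contrast, so their order describes how each value is made up.

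An unadjusted p under 0.01 in limma's test was found for 61 of 10751 members (0.567%), a share below what the level itself allows. Of 39 such members that averaged 5 FPKM or more, 1 was positive with FPKM as deposited. SNRPG, a core protein of the spliceosomal small nuclear RNA particles (chromosome 2, 70281362 to 70293771, hg38), was the most negative. It had 25.1, 16.2 and 15.5 FPKM in Combo, 27.7, 27.0 and 33.6 in IR, 32.9, 33.5 and 23.6 in Rx and 30.8, 23.4 and 19.3 in Con. Combo lay below IR in every library, while Con overlapped both. Its interaction was -0.93 (SE 0.29; limma, unadjusted p = 0.00907, adjusted p = 0.609). OST4, a small subunit of the complex that attaches N-linked sugars, had 65.2, 63.0 and 57.7 FPKM in Combo, 70.7, 88.8 and 105 in IR, 73.0, 83.5 and 66.3 in Rx and 70.4, 69.0 and 66.4 in Con. All 3 Combo libraries were below the other 9, and IR 3 was the highest (interaction -0.59, SE 0.18).

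POLR2L, a subunit shared by the RNA polymerases, had 72.5, 66.7 and 57.4 FPKM in Combo, 84.2, 96.9 and 106 in IR, 77.0, 84.9 and 71.5 in Rx and 77.7, 78.7 and 77.1 in Con. Combo was below IR and Con in every library and overlapped Rx (interaction -0.54, SE 0.15). LGALS3, which encodes the sugar-binding protein galectin-3 (chromosome 14, 55124110 to 55145413), had 41.3, 39.7 and 34.8 FPKM in Combo, 48.4, 48.6 and 58.0 in IR, 44.5, 52.2 and 45.8 in Rx and 45.7, 44.9 and 44.1 in Con. Its 3 Combo libraries were the lowest of the 12, and all IR libraries were above all Con libraries. The interaction was -0.49 (SE 0.13; limma, unadjusted p = 0.00327, adjusted p = 0.609).

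SOCS1, a feedback inhibitor of cytokine signalling through JAK and STAT (chromosome 16, 11254405 to 11256200), had 9.72, 9.38 and 8.85 FPKM in Combo, 13.7, 11.2 and 13.9 in IR, 13.3, 11.9 and 11.0 in Rx and 12.2, 10.9 and 11.5 in Con. Combo did not overlap any other group, and the other 3 groups overlapped each other. Its interaction was -0.48 (SE 0.13) and -0.40 without IR 3 and Combo 3. RPL11, described with the ribosomal proteins, was among the remaining negative genes that the naming rule took. Others were DMAC1 (-0.51, SE 0.14), which takes part in building respiratory complex I, and DNPH1 (-0.51, SE 0.16), which hydrolyses a modified nucleotide. The rest were CETN3 (-0.50, SE 0.15), a centrin, the mitochondrial ribosome gene MRPL36 (-0.49, SE 0.14), MRPS36 (-0.48, SE 0.15) and PFDN4 (-0.48, SE 0.15), a prefoldin chaperone subunit. By limma the unadjusted p of these ran up to 0.00957 and each had an adjusted p of 0.609.

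Among all members the smallest unadjusted p belonged to MRPS31, another protein of the mitochondrial ribosome, a gene named after its value was seen. It had 6.96, 7.71 and 7.19 FPKM in Combo, 8.98, 9.02 and 9.10 in IR, 8.50, 8.35 and 9.42 in Rx and 8.41, 7.32 and 8.02 in Con. IR was above Con and Combo in every library, and Combo overlapped Con. Its interaction was -0.41 (SE 0.10; limma, unadjusted p = 0.00133, adjusted p = 0.609).

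On the positive side the rule named 1 gene. PI4KA, a kinase that makes phosphatidylinositol 4-phosphate at the plasma membrane (chromosome 22, 20707691 to 20859417), had 5.82, 5.81 and 5.45 FPKM in Combo, 5.33, 4.76 and 4.19 in IR, 5.73, 5.72 and 5.66 in Rx and 5.75, 6.86 and 6.93 in Con. IR lay below every other library, and Combo was close to Rx. The interaction was 0.38 (SE 0.12; limma, unadjusted p = 0.00869, adjusted p = 0.609). TBX18, a transcription factor gene, was chosen after its value was seen. It had 4.69, 4.44 and 4.87 FPKM in Combo, 3.73, 3.54 and 3.28 in IR, 4.06, 3.49 and 3.98 in Rx and 4.25, 3.81 and 4.15 in Con. Combo was above the other 9 libraries and IR below Con (interaction 0.39, SE 0.10; limma, unadjusted p = 0.00289).

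**Figure D2:**
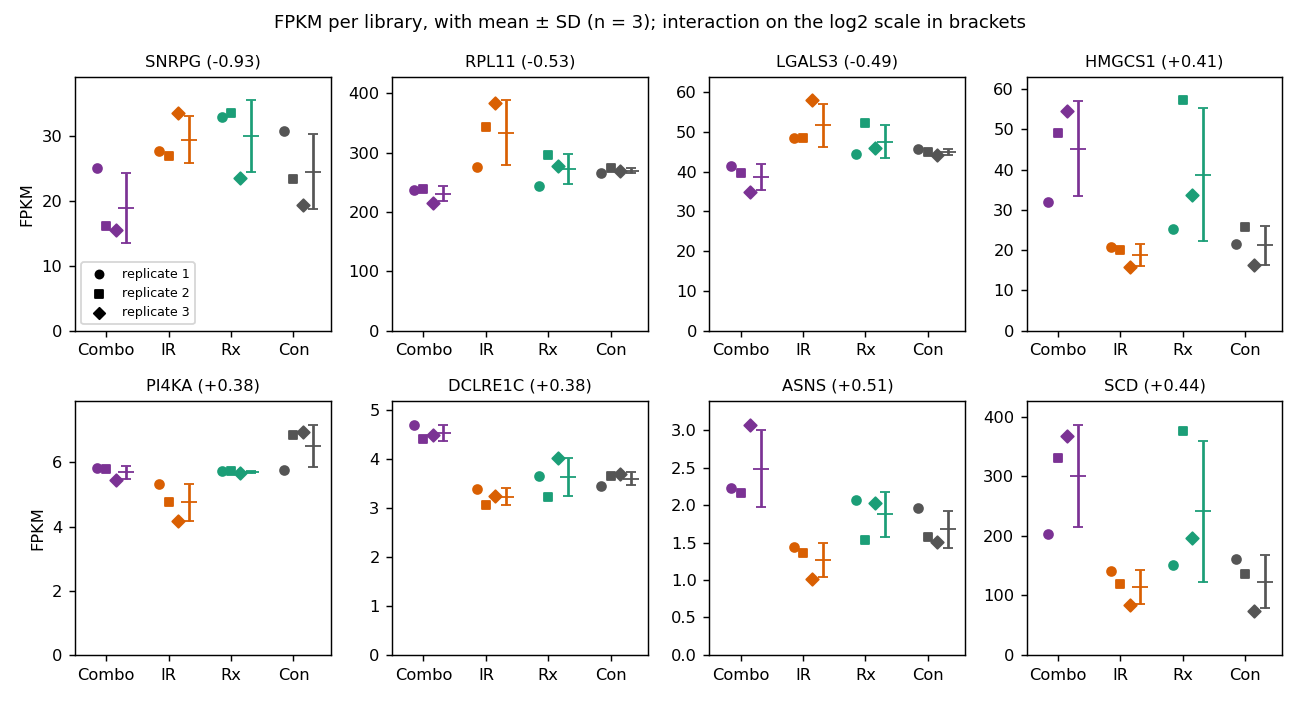
FPKM of 8 genes in each library (points), with the mean and SD of each group (n = 3), from Combo on the left to Con on the right. SNRPG, RPL11 and LGALS3 have their lowest group mean in Combo. DCLRE1C and ASNS have their highest in Combo with no overlap with the other groups, and HMGCS1 and SCD are spread widely within Rx and Combo.

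Cytosolic ribosomal protein genes lay together on the negative side. All 36 listed genes were negative, from -0.54 for RPS16 to -0.34 for RPL3, with a median of -0.45 against -0.04 over all members. Of the 36, 27 (75%) had an unadjusted p under 0.05 by limma, against 5.49% of all members on the negative side, and 0 an adjusted p under 0.05. Members of this list move together from library to library, so their count is not 27 separate results. The median was -0.23 without IR 3 and Combo 3. With TPM it was -0.25, where the median of all members was 0.13. It was -0.14 with quantile normalisation, which gives equal ranks equal values and so can draw highly expressed genes towards 0.

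RPL11, a protein of the large subunit that also binds MDM2 (chromosome 1, 23691742 to 23696835), had 237, 239 and 216 FPKM in Combo, 275, 343 and 383 in IR, 244, 296 and 277 in Rx and 265, 274 and 269 in Con. The 3 Combo libraries were the lowest of the 12, and IR 2 and IR 3 the highest. Its interaction was -0.53 (SE 0.17; limma, unadjusted p = 0.00841, adjusted p = 0.609). RPS14 (-0.53, SE 0.20), RPS6 (-0.52, SE 0.21) and RPL37 (-0.51, SE 0.18) had similar values. Averaged over the list and set against the Con mean on the log2 scale, Combo lay at -0.11, -0.14 and -0.36, IR at -0.10, 0.24 and 0.49, Rx at -0.03, 0.15 and 0.00 and Con at -0.05, 0.00 and 0.05. IR 1 and Combo 1 were nearly level, and the other libraries of these 2 groups lay apart.

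As a share of all reads, ribosomal protein genes took 6.48%, 6.46% and 5.68% in Combo and 6.61%, 8.13% and 9.19% in IR. They took 7.16 ± 0.395% in Rx and 7.13 ± 0.182% in Con (SD, n = 3). The interaction of this share was -1.80 percentage points, and -0.930 without IR 3 and Combo 3. IR 3 also had the largest sum of FPKM (356770), and the sums were 294884 ± 8860 in Combo, 318830 ± 36793 in IR, 313333 ± 6074 in Rx and 294277 ± 14999 in Con (SD, n = 3). The part of the library scaling in the ribosomal result was not tested beyond the alternatives above. Ribosomal protein genes have processed pseudogenes that can take their reads, and their levels are uncertain to that extent.

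Many ribosomal protein transcripts begin with a C followed by a run of pyrimidines, the TOP tract, through which mTOR controls their translation. This sequence is shown because it is the best known feature that these genes share and the interaction did not choose. In RefSeq's promoter table (GRCh38.p14, 250 bases before to 50 after each annotated start), 25 of the 36 listed genes were matched. On the gene's own strand, 15 of them (60%) had a C at the annotated start followed by at least 4 letters that were C or T, against 5.82% of 8631 members with a promoter. In the lines below 20 bases stand on each side of the border before the annotated start, and capitals mark the tract; HMGCS1 and INSIG1, from the cholesterol lists, are shown beside them and hold none.
RPS14 (chr5:150449720-150449759, minus strand): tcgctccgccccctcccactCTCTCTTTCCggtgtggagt
RPL35 (chr9:124861938-124861977, minus strand): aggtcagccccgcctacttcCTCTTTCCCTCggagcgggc
RPS23 (chr5:82278335-82278374, minus strand): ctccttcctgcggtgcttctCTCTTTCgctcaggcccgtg
RPS6 (chr9:19380217-19380256, minus strand): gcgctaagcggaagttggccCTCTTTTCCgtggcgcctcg
HMGCS1 (chr5:43313393-43313432, minus strand): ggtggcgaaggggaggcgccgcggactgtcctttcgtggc
INSIG1 (chr7:155297858-155297897, plus strand): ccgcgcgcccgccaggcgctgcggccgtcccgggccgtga

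The tract did not separate the ribosomal protein genes among themselves. Their median interaction was -0.45 with the tract and -0.48 without it in the list of 36. When all 83 measured cytosolic ribosomal protein genes were taken, a list added after values were seen, 44 of 68 matched genes (64.7%) had the tract, and the medians were -0.46 with and -0.43 without it. Among 8563 other members the tract was present in 458 (5.35%), with a median of -0.07, against -0.03 without it. A tract at an annotated start is a description of letters, and no translation was measured here.

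Nuclear genes of the respiratory chain were negative in 26 of 27, with a median of -0.28 and 7 at an unadjusted p under 0.05 by limma (25.9%, against 5.49% of members). ATP5PO, a subunit of the stalk of ATP synthase (-0.50, SE 0.17), and COX5B (-0.43, SE 0.17) and COX6C (-0.43, SE 0.18), of cytochrome oxidase, were among the 7. The median was -0.14 without IR 3 and Combo 3 and -0.08 with TPM, where the median of all members was 0.13. ATP5PO had 4.79, 4.15 and 4.34 FPKM in Combo, 4.83, 6.56 and 7.42 in IR, 6.59, 6.22 and 5.42 in Rx and 5.19, 5.77 and 5.90 in Con. All 3 Combo libraries were below the other 9, and IR spanned the range of the rest.

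The 13 mitochondrially encoded genes were all negative too, with a median of -0.31 (0 with quantile normalisation) and 0 genes at an unadjusted p under 0.05 by limma. Quantile normalisation gives equal ranks equal values, so it can return 0 for genes at the top of every library whatever their change. The lowest p was that of MT-ND6 (-0.46, SE 0.23; limma, unadjusted p = 0.0724, adjusted p = 0.609). The share of reads from mitochondrial genes was 8.70 ± 0.554% in Combo, 8.50 ± 1.90% in IR, 9.08 ± 0.622% in Rx and 7.79 ± 1.29% in Con (SD, n = 3). Without IR 3 and Combo 3 the list median was -0.10, and IR 3 alone had the highest list mean of the 12 libraries (0.57 over Con).

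Lists added after values were seen were drawn up by gene symbol. They gave a median of -0.24 for 75 genes with mitochondrial ribosomal protein symbols (18 negative at an unadjusted p under 0.05 by limma, 24%). It was -0.32 for 18 Sm and LSm proteins of the spliceosome (7, 38.9%). The medians were -0.20 for 35 proteasome subunits (5, 14.3%), all of them negative, -0.20 for 12 RNA polymerase II subunits (2, 16.7%) and -0.16 for 16 V-ATPase subunits (2, 12.5%). Without IR 3 and Combo 3 these medians were -0.09 for the mitochondrial ribosome, -0.16 for Sm and LSm proteins, -0.11 for the proteasome, -0.05 for RNA polymerase II and -0.06 for the V-ATPase. With TPM they were -0.07 for the mitochondrial ribosome, -0.13 for Sm and LSm proteins, -0.02 for the proteasome, -0.02 for RNA polymerase II and 0.03 for the V-ATPase. The median of all members with TPM was 0.13. Aminoacyl-tRNA synthetases had a median of -0.06 (3 of 33, 9.09%), which was 0.13 with TPM, 0.01 with quantile normalisation and -0.03 without IR 3 and Combo 3. Each of these shares stands against 5.49% of all members on the negative side.

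**Figure D3:**
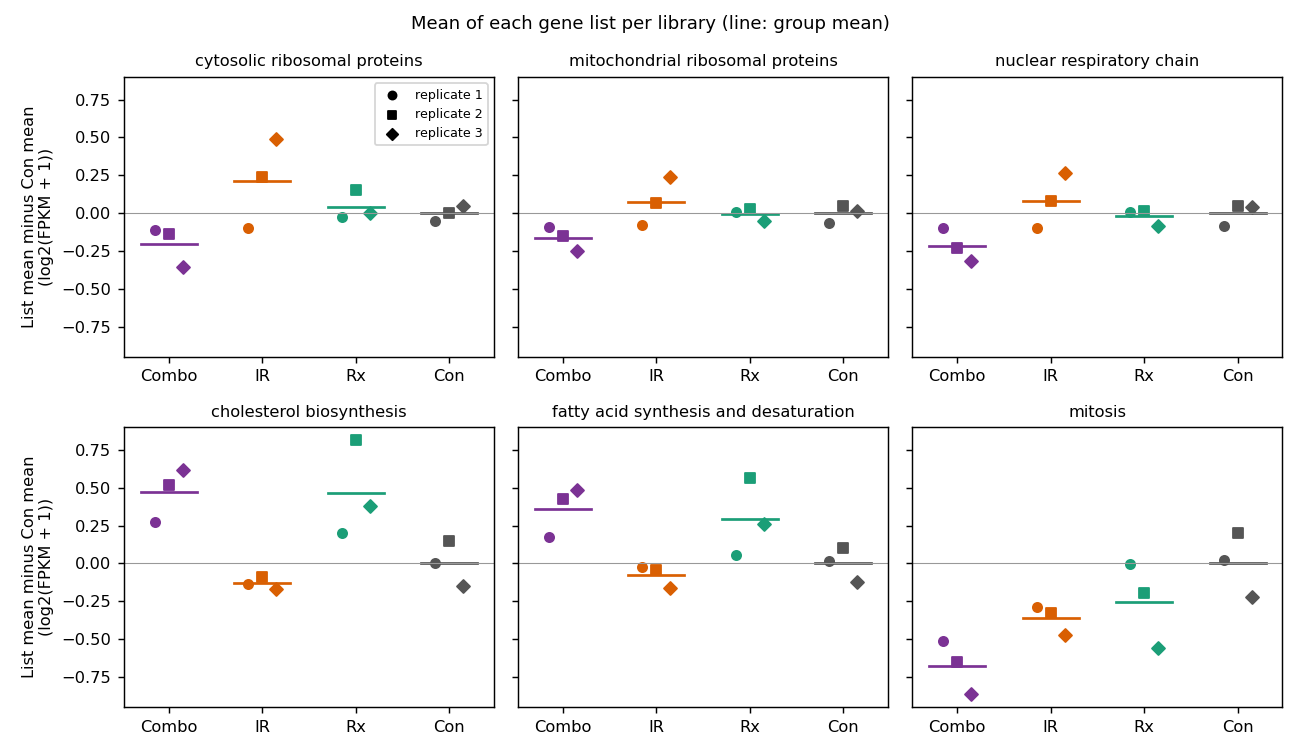
Mean of 6 gene lists in each library (points, log2(FPKM + 1)), set against the mean of the Con libraries, with the group mean as a line. In the ribosomal protein panel IR spreads between -0.10 and 0.49 and Combo between -0.36 and -0.11. In the cholesterol panel Combo and Rx lie above IR and Con, and in the mitosis panel Combo is lowest.

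The interaction differed by gene length. In the shortest quartile of members (2690 genes, 207 to 3361 bases of deposited gene length) the median was -0.18 and 84.6% were negative. At an unadjusted p under 0.05 by limma, 348 were negative and 10 positive. Over all members, 5.49% were negative and 1.33% positive at that level. The median was -0.08 in the second quartile, 0.00 in the third and 0.10 in the longest (2688 genes, 7576.5 to 44677 bases). In the longest quartile 26.7% were negative, and the counts at that level were 21 negative and 82 positive. These counts are for FPKM as deposited. Without IR 3 and Combo 3 the medians of the 4 quartiles were -0.10, -0.04, -0.00 and 0.06. With TPM they were -0.00, 0.09, 0.17 and 0.25, so the slope remained while every quartile moved up.

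Quartiles of mean level differed as well, with medians of 0.02, -0.00, -0.04 and -0.14 from the lowest to the highest FPKM. Quartiles of GC content differed less, with -0.01, -0.03, -0.04 and -0.06. Some genes with large positive values, named after their values were seen, were low in IR 3. KMT2D, a long histone methyltransferase gene (20485 bases), had 15.8, 15.3 and 16.6 FPKM in Combo, 17.0, 11.5 and 5.01 in IR, 12.1, 9.66 and 13.7 in Rx and 14.5, 12.8 and 15.8 in Con (interaction 0.88, SE 0.42). RBP5, a short gene (1369 bases), had 5.30, 2.70 and 0.993 FPKM in IR (interaction 0.94, SE 0.43), from 19 to 163 reads per library. IR 1 was the highest library of all for KMT2D and IR 3 the lowest. When each gene was set against members of like length, the ribosomal protein median was -0.33, that of the nuclear respiratory chain -0.17 and that of the mitochondrially encoded genes -0.05. What length stands for in these libraries was not tested.

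**Figure D4:**
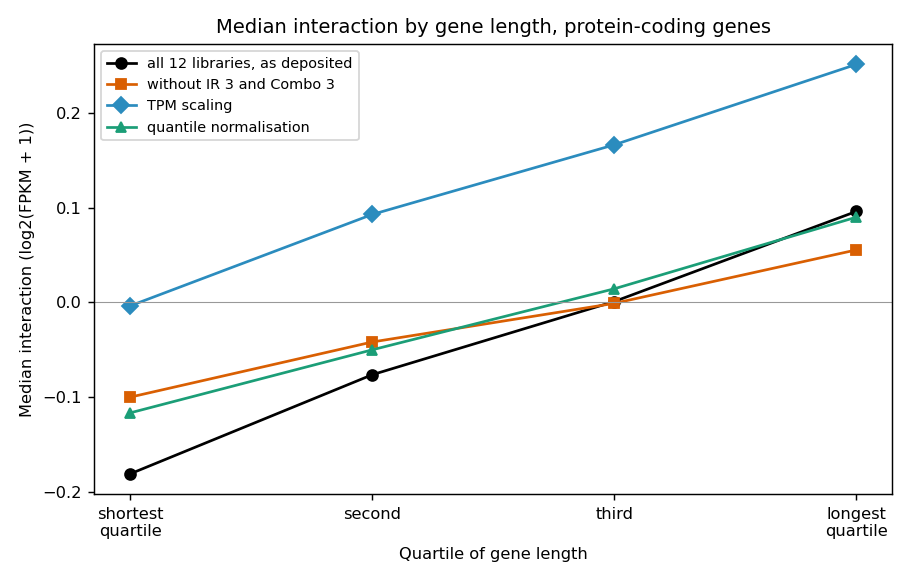
Median interaction (y axis, log2(FPKM + 1)) of protein-coding genes in 4 quartiles of gene length, under 4 ways of processing. All lines climb from the shortest to the longest quartile, from -0.18 to 0.10 with the values as deposited, and TPM scaling lifts the whole line.

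Cholesterol synthesis genes had a positive interaction in 19 of 21, with a median of 0.16, and 41.9% of all members were positive. None of the 21 had an unadjusted p under 0.05 by limma in either direction. The median difference was 0.63 between Combo and IR and 0.47 between Rx and Con, and the interaction of a gene is the difference of these 2 comparisons.

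HMGCS1, which makes HMG-CoA at the head of the pathway, had 31.8, 49.1 and 54.5 FPKM in Combo, 20.7, 20.0 and 15.7 in IR, 25.2, 57.2 and 33.8 in Rx and 21.6, 25.6 and 16.2 in Con. Combo was above IR in every library but overlapped Rx, whose second library was the highest. The interaction was 0.41 with an SE of 0.40 (limma, adjusted p = 0.739). It was 0.14 without IR 3 and Combo 3, and between 0.15 without Rx 1 and 0.72 without Rx 2. DHCR7, which reduces the last precursor to cholesterol, had 0.35 (SE 0.29), and SQLE, which oxidises squalene, 0.19 (SE 0.21). The exceptions were PMVK, which phosphorylates mevalonate phosphate (-0.33, SE 0.16; limma, unadjusted p = 0.0607), and NSDHL (-0.09, SE 0.16).

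Over the cholesterol synthesis list, library means relative to Con were 0.27, 0.52 and 0.62 in Combo, -0.14, -0.09 and -0.17 in IR, 0.20, 0.81 and 0.38 in Rx and 0.00, 0.15 and -0.15 in Con. IR lay near the lower end of Con, and Rx spanned more than Combo. The list median was 0.06 without IR 3 and Combo 3, 0.01 without Rx 1 and 0.34 without Rx 2. With scalings that moved the median of all members it was 0.31 (TPM) and 0.25 (quantile normalisation).

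Genes that control SREBP or take up cholesterol were positive in 10 of 15, with a median of 0.05 that was 0.22 with TPM and turned to -0.0047 without IR 3 and Combo 3. The 5 efflux genes had a median of -0.13 (0.01 with TPM) with 2 positive. INSIG1, which holds SREBP in the endoplasmic reticulum, had 45.7, 84.2 and 84.3 FPKM in Combo, 28.4, 33.6 and 23.3 in IR, 39.8, 122 and 50.7 in Rx and 31.9, 42.3 and 21.2 in Con. Its interaction was 0.25 with an SE of 0.55, so that leaving out 1 library set its sign: -0.08 without Rx 1 and 0.72 without Rx 2. The lysosomal cholesterol carriers NPC2 and NPC1 had -0.31 (SE 0.15) and 0.32 (SE 0.30), and APOE, the lipoprotein gene of the efflux list, -0.42 (SE 0.22).

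Fatty acid synthesis and desaturation genes were positive in 13 of 17, with a median of 0.20 and 0 at an unadjusted p under 0.05 by limma. SCD, which puts the double bond into stearate, had 203, 330 and 368 FPKM in Combo, 140, 119 and 84.2 in IR, 152, 375 and 196 in Rx and 160, 136 and 73.1 in Con. Combo was above IR and Con in every library and overlapped Rx, and the interaction was 0.44 (SE 0.53). FASN, fatty acid synthase, had 0.48 (SE 0.38) and ACLY, which supplies cytosolic acetyl-CoA, 0.24 (SE 0.17). Without IR 3 and Combo 3 the list median was 0.04 and SCD was at 0.07.

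Genes of the p53 response were negative in 22 of 30, with a median of -0.14, and 2 had an unadjusted p under 0.05 by limma, both negative (6.67%, against 5.49% of members). These 2 were FAS, a death receptor (-0.29, SE 0.13), and PLK2, a kinase (-0.23, SE 0.10). CDKN1A, the gene of the cyclin-dependent kinase inhibitor p21, had 195, 242 and 194 FPKM in Combo, 182, 221 and 220 in IR, 157, 181 and 165 in Rx and 135, 151 and 157 in Con. Both irradiated groups were above both sham-exposed groups in every library, and Combo overlapped IR. Its interaction was -0.17 (SE 0.16; limma, adjusted p = 0.734), -0.07 without IR 3 and Combo 3, 0.03 with TPM and 0.12 with quantile normalisation, so its sign depended on the scaling.

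BTG2, which slows proliferation, had 14.3 to 19.8 FPKM in Combo, 20.7 to 22.3 in IR, 13.8 to 15.4 in Rx and 15.3 to 16.1 in Con. IR was above every other library, and Combo overlapped Rx and Con and reached above both (interaction -0.23, SE 0.14; limma, adjusted p = 0.618; -0.08 without IR 3 and Combo 3). GDF15, a secreted stress factor, had -0.31 (SE 0.29) and MDM2, the ubiquitin ligase of p53, 0.02 (SE 0.21). The p53 median was -0.03 without IR 3 and Combo 3 and 0.05 with TPM.

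Mitosis genes were negative in 21 of 28, with a median of -0.08 (0.08 with TPM), and 0 had an unadjusted p under 0.05 by limma. The median was -0.0057 without IR 3 and Combo 3, and it turned positive without Combo 3 (0.03), without Rx 1 (0.04) or without Con 3 (0.04). Each treatment went with lower levels alone (medians of -0.34 for IR against Con and -0.24 for Rx against Con), and the list median was -0.67 for Combo against Con. Relative to Con the list means were -0.51, -0.65 and -0.86 in Combo, -0.29, -0.33 and -0.47 in IR, -0.00, -0.20 and -0.56 in Rx and 0.03, 0.20 and -0.22 in Con. Combo 3, IR 3, Rx 3 and Con 3 were each the lowest of their group.

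MKI67, a marker of cycling cells (chromosome 10, 128096659 to 128126385), had 7.65, 6.72 and 5.11 FPKM in Combo, 8.67, 7.40 and 4.78 in IR, 10.7, 9.11 and 6.62 in Rx and 12.7, 13.1 and 10.1 in Con. Combo overlapped IR, and the interaction was 0.35 (SE 0.30; limma, adjusted p = 0.702). KIF20A, a kinesin of cell division, had 5.36, 4.43 and 3.28 FPKM in Combo, 6.57, 5.90 and 5.41 in IR, 8.49, 6.74 and 5.14 in Rx and 9.93, 10.2 and 7.22 in Con. Combo was below IR and Con in every library, and the 2 single effects (-0.53 for IR against Con, -0.38 for Rx against Con) came to nearly the joint one. The interaction of KIF20A was -0.01 (SE 0.26), 0.16 with TPM, 0.01 with the median of ratios and 0.09 without IR 3 and Combo 3. Chosen after their values were seen, long mitosis genes such as CENPE (0.27, SE 0.16) and CENPF (0.20, SE 0.20) were positive, and shorter ones such as BIRC5 (-0.36, SE 0.29) and CDK1 (-0.28, SE 0.25) negative. The list median was 0.00 when each gene was set against members of like length.

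DNA replication genes were negative in 23 of 27 (median -0.07, 0.08 with TPM and -0.04 without IR 3 and Combo 3; 0 at an unadjusted p under 0.05 by limma), with FEN1, a flap nuclease, at -0.29 (SE 0.18) and MCM2, of the replicative helicase, at 0.17 (SE 0.23). Homologous recombination and Fanconi genes were positive in 11 of 15 (median 0.10, 0 at that level), with XRCC2, a recombination protein, at 0.30 (SE 0.20). Their median was 0.22 with TPM, 0.02 with quantile normalisation and 0.03 when each gene was set against members of like length. It was 0.01 without Con 2, 0.03 without Rx 3, 0.06 without IR 3 and 0.15 without Rx 1 or Con 3.

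End joining genes were positive in 7 of 11, with a median of 0.16 that was 0.09 without Combo 1 and 0.06 without Rx 2. The median was 0.08 when each gene was set against members of like length. DCLRE1C encodes Artemis, the nuclease that opens and trims DNA ends (chromosome 10, 14897359 to 14954432). It had 4.71, 4.40 and 4.49 FPKM in Combo, 3.40, 3.07 and 3.25 in IR, 3.66, 3.24 and 4.02 in Rx and 3.45, 3.66 and 3.71 in Con. The 3 Combo libraries were the highest of the 12, and all IR libraries were below all Con libraries. Its interaction was 0.38 (SE 0.10; limma, unadjusted p = 0.00408, adjusted p = 0.609), and 0.31 to 0.44 when each library was left out in turn. It was the only gene of the 11 at an unadjusted p under 0.05 by limma (1.33% of all members were positive at that level). PRKDC, the catalytic subunit of DNA-dependent protein kinase that activates Artemis, had 0.52 (SE 0.27), TP53BP1 0.35 (SE 0.19), and the end-binding pair XRCC5 and XRCC6 -0.12 (SE 0.12) and -0.20 (SE 0.12).

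In the integrated stress response, 11 of 18 genes were negative (median -0.09, 0.10 with TPM and 0.08 with quantile normalisation). At an unadjusted p under 0.05 by limma, 1.33% of all members were positive and 5.49% negative. ASNS, asparagine synthetase, a target of ATF4, was the only 1 of the 18 at that level. It had 2.23, 2.16 and 3.08 FPKM in Combo, 1.44, 1.36 and 1.01 in IR, 2.07, 1.53 and 2.03 in Rx and 1.96, 1.57 and 1.51 in Con, from 63 to 262 reads. Combo was above the other 9 libraries, and IR was below them. The interaction was 0.51 (SE 0.19; limma, unadjusted p = 0.0189, adjusted p = 0.609) and 0.31 without IR 3 and Combo 3. SLC7A11, the cystine carrier, had 0.40 (SE 0.19), while ATF4 itself had -0.14 (SE 0.15) and DDIT3, a transcription factor of prolonged stress, -0.17 (SE 0.21).

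The other stress lists were mostly negative by small amounts. Medians were -0.12 for the unfolded protein response (5 of 17 positive), -0.12 for cytosolic heat shock proteins (1 of 13), -0.07 for NRF2 genes (3 of 16) and -0.06 for lysosome and autophagy genes (8 of 28). The single members at an unadjusted p under 0.05 by limma were SDF2L1, a chaperone cofactor of the endoplasmic reticulum (-0.48, SE 0.20), and HSPB1, a small heat shock protein (-0.38, SE 0.16). They made up 5.88% and 7.69% of their lists, against 5.49% of all members on the negative side. The autophagy adaptor SQSTM1 had 0.03 (SE 0.15), the chaperone HSPA5 -0.12 (SE 0.10) and the haem oxygenase HMOX1 -0.06 (SE 0.19). With TPM, where the median of all members was 0.13, the medians of these 4 lists were 0.08, 0.08, 0.11 and 0.11, and all 4 were positive with quantile normalisation too, so their sign depended on the scaling. The heat shock median was -0.06 without IR 3 and Combo 3.

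Immune and inflammatory lists gave medians of -0.21 for MHC class I presentation (4 of 14 positive, 0.03 with quantile normalisation), -0.11 for interferon-stimulated genes (6 of 19, 0.07 with TPM) and 0.03 for NF-kB and secreted factors (8 of 15). Without IR 3 and Combo 3 the interferon median was -0.05 and the NF-kB median turned to -0.12, and with 1 library left out the NF-kB median ran between -0.15 without Rx 3 and 0.15 without Rx 2. B2M, the light chain of MHC class I, had 247, 203 and 213 FPKM in Combo, 230, 247 and 268 in IR, 246, 227 and 208 in Rx and 218, 189 and 198 in Con. The groups overlapped except that IR was above Con (interaction -0.34, SE 0.14; limma, unadjusted p = 0.0395, adjusted p = 0.609). USP18, which shuts off interferon signalling, had -0.39 (SE 0.16). CXCL2, a chemokine, had 7.13, 4.76 and 9.59 FPKM in Combo, 3.64, 3.76 and 3.58 in IR, 5.82, 10.9 and 6.16 in Rx and 3.03, 2.35 and 3.62 in Con. Both QTP groups were above both vehicle groups in every library (interaction -0.31, SE 0.34; limma, adjusted p = 0.766; -0.53 without IR 3 and Combo 3).

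Hypoxia and glycolysis genes were negative in 16 of 21 (median -0.19), but standard errors were large, such as 0.37 for P4HA1, a collagen hydroxylase gene (-0.41), and 0.99 for CA9, a carbonic anhydrase gene (-0.51). P4HA1 had 47.9, 54.0 and 50.3 FPKM in Combo, 66.2, 57.4 and 56.0 in IR, 46.5, 57.1 and 36.9 in Rx and 64.7, 40.3 and 25.5 in Con. Con spanned nearly the whole range by itself, and the list median was -0.30 without IR 3 and Combo 3, 0.12 without Con 3 and -0.46 without Con 1.

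Lists for the identity of the cells showed no member at an unadjusted p under 0.05 by limma. The 6 measured mesothelial markers had a median of -0.28, which was -0.10 without IR 3 and Combo 3, -0.08 with TPM and -0.04 with quantile normalisation. KRT18, a keratin, had 411, 521 and 339 FPKM in Combo, 518, 594 and 751 in IR, 474, 634 and 587 in Rx and 525, 630 and 599 in Con (interaction -0.50, SE 0.26; limma, unadjusted p = 0.0762; -0.21 without IR 3 and Combo 3). Combo overlapped IR and Rx by its second library and lay below Con. KRT18 overlaps KRT8 in the genome, and the 2 can share reads. MSLN, mesothelin, had -0.53 (SE 0.47). Mesenchymal and matrix genes had a median of 0.05 (11 of 21 positive), which turned to -0.07 without IR 3 and Combo 3 and ran between -0.09 without Con 1 and 0.08 without Con 3. The medians were -0.01 for YAP and TAZ targets (8 of 18, positive under each other scaling tried) and -0.13 for stem and initiating cell genes (3 of 10, 0.05 with TPM), with NOTCH1, a signalling receptor, at 0.35 (SE 0.23).

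Of 22 dopamine receptors and other targets of antipsychotic drugs, 5 were measured and 15 averaged under 0.1 FPKM. Their median was -0.06 (0.10 with TPM and -0.02 without IR 3 and Combo 3). DRD4, the receptor gene among those measured, had 3.35, 4.55 and 3.61 FPKM in Combo, 3.42, 4.22 and 5.67 in IR, 4.45, 5.39 and 3.22 in Rx and 3.36, 4.74 and 4.24 in Con. All 4 groups overlapped, and the interaction was -0.21 (SE 0.26; limma, adjusted p = 0.796) and -0.02 without IR 3 and Combo 3.

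**Figure D5:**
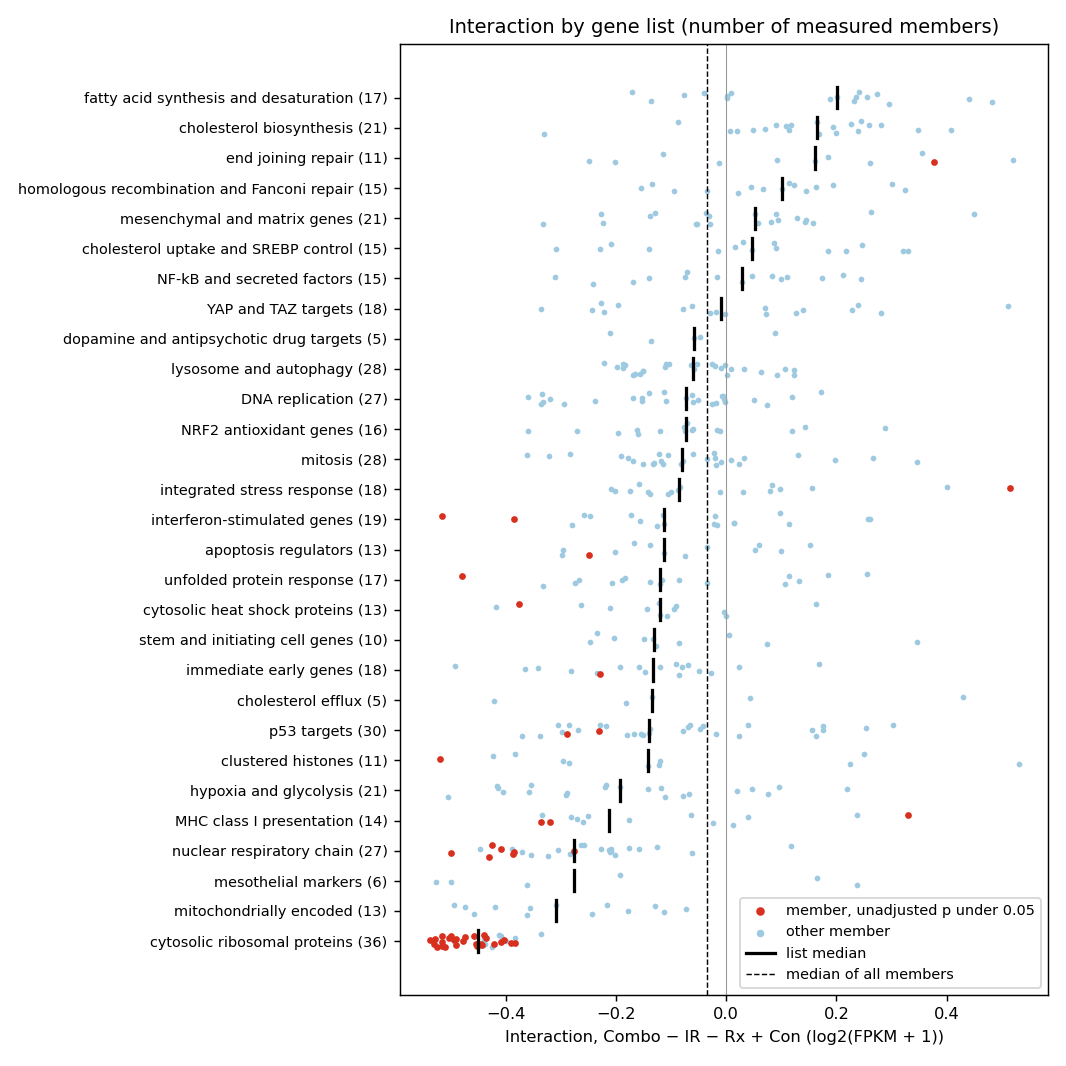
Interaction of every measured member (points, log2(FPKM + 1)) of the 29 gene lists with at least 5 measured members, ordered by list median (black bars). Red points have an unadjusted p under 0.05 by limma, and the dashed line is the median of all members. Red points gather in the ribosomal protein list at the bottom, and the cholesterol and fatty acid lists lie at the top with none.

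Over these 29 lists, 21 had a median below that of all members. After quantile normalisation 13 did, and with each library left out in turn 17 to 23 did. The remaining lists stand against a median of -0.04 over all members. Immediate early genes had a median of -0.13 (2 of 18 positive, 0.04 with TPM), and JUN had -0.23 (SE 0.09, limma's unadjusted p = 0.0269). Clustered histones had -0.14 (3 of 11, 0.02 with TPM). Apoptosis regulators had -0.11 (4 of 13, 0.06 with TPM), and BAK1 had -0.25 (SE 0.10, limma's unadjusted p = 0.0347).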

How the data were processed

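The authors deposited FPKM per gene with gene lengths and hg38 coordinates, hg38 being named in the submitters' processing notes. How reads were aligned, counted (with or without strand) and scaled to the library is not given in the sources used here. In each library, 100% of FPKM times gene length were whole multiples of a single step (tolerance 0.01 of a read), and whole reads were recovered from them. A chi-square of these reads found no pair of replicates that was a repeat (7.09 to 39.9 per degree of freedom).

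Group means of log2(FPKM + 1) were compared in R 4.3.3 with limma 3.58.1 (variance trend, two-sided, all 12 libraries, group as the only term) for genes averaging 1 FPKM or more, and Combo - IR - Rx + Con was tested with Benjamini-Hochberg adjustment over all 13038 genes (threshold 0.05). Values on this scale understate changes of low genes. Limma's voom on the recovered reads called 0 genes, with 1100 at an unadjusted p under 0.05. The fit was also run on simulated counts with no shift shared between genes, unlike these libraries, so that run checks the code alone.

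Members and gene lists were chosen with earlier results of these data known. Genes were named by a rule: members with an adjusted p under 0.05 (none), at most 12 per direction with a mean of at least 5 FPKM and an unadjusted p under 0.01, the member of each list with the smallest p, and a fixed set that includes CDKN1A, HMGCS1 and MKI67. A few genes that the rule names are not reported here. List symbols were matched by name, 18 by identifier. Near-identical or overlapping genes can share reads, and 175 symbols belong to more than 1 identifier. Alternatives were another pseudocount (0.1), no filter, at least 5 FPKM, protein-coding genes alone, TPM, median of ratios, quantiles, a linear scale, no trend, quality weights, a block for the replicate number and libraries left out. Setting genes against others of like length was added after seeing the data.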

Additional observations from a re-analysis of the deposited data

How the results depend on the processing

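Genes called at an adjusted p under 0.05 by limma numbered 0 under every alternative but 3: 6 without a filter, 3 without IR 1 and 1 without Rx 3, none of them protein-coding. With each library left out in turn, members at an unadjusted p under 0.05 numbered 48 to 665 on the positive side and 229 to 1442 on the negative. Both counts were highest without IR 1. The positive count was 276 without a filter, 70 at a mean of at least 5 FPKM, 583 with TPM, 665 with quality weights, 240 with voom and 23 without IR 3 and Combo 3. The negative count was 73 with TPM, 352 with quantile normalisation, 1409 with quality weights and 121 without IR 3 and Combo 3. The ribosomal protein median was -0.25 with TPM, -0.14 with quantile normalisation and -0.23 without IR 3 and Combo 3. Lists below the median of all members numbered 13 with quantile normalisation and 17 to 23 with 1 library left out. Signs turned with TPM for DDIT3 (0.012), CDKN1A (0.029), HSPA5 (0.080), HMOX1 (0.095) and KIF20A (0.16). They turned with the median of ratios for KIF20A (0.014), with quantile normalisation for PLK2 (0.070), CDKN1A (0.12) and HSPA5 (0.14), on a linear scale for KIF20A (0.16) and with quality weights for MDM2 (-0.013). They turned without IR 3 and Combo 3 for KIF20A (0.085), SQSTM1 (-0.11) and INSIG1 (-0.029), and against genes of like length for DRD4 (0.049), DDIT3 (0.086), HMOX1 (0.12), KIF20A (0.085), MDM2 (-0.16) and SQSTM1 (-0.0050). With 1 library left out, KIF20A ran between -0.17 and 0.14, MDM2 between -0.18 and 0.15, SQSTM1 between -0.051 and 0.12, MCM2 between -0.015 and 0.30, INSIG1 between -0.077 and 0.72 and HMOX1 between -0.17 and 0.083. The cause of these shifts was not tested. The labels do not say what a replicate number stands for, and 11 of 18 same-numbered pairs had a correlation of deviations over 0.1 (-0.207 to 0.354), among them all 3 between IR and Con and all 3 between Rx and Con. As a hint from the data, 10 of 12 libraries correlated best with their own number. Since not every pair exceeded 0.1, the numbers were not taken as pairs. With a replicate block in the fit, limma called 0 genes (lowest adjusted p = 0.363, 1069 genes at an unadjusted p under 0.05).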

Other observations

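Genes that do not code for proteins were tested in the same fit. With FPKM as deposited, their median lay on the other side of 0 from that of members. Of 2287, 160 were positive and 102 negative at an unadjusted p under 0.05 by limma (11.5%, against 7.63% of all tested genes). Of the members, 1.33% were positive and 5.49% negative at that level, and with TPM the median of members was itself 0.13. None of the 2287 passed after Benjamini-Hochberg adjustment by limma over all genes. The median interaction of the 2287 was 0.08 and their median length 679 bases. The 484 antisense transcripts had a median of 0.11 (39 positive, 7 negative, 9.5%) and the 116 sense intronic ones 0.19 (9 and 3, 10.3%). The 147 transcribed unprocessed pseudogenes had 0.15 (19 and 1, 13.6%), and the 140 miRNA genes, with a median length of 80.5 bases, had 0.34 (14 and 3, 12.1%). The 410 processed pseudogenes, which are copies of mature messages, had a median of -0.13 (19 positive, 63 negative, 20%), on the side of the short coding genes. The 374 lincRNAs had 0.01 (16 and 12, 7.49%).

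MIR1254-1, a miRNA gene (chromosome 10, 68759318 to 68759414) named after its values were seen, had 22.3, 28.7 and 28.0 FPKM in Combo, 16.4, 16.1 and 16.2 in IR, 23.3, 23.8 and 19.3 in Rx and 22.2, 27.1 and 28.8 in Con. IR was below the other 9 libraries (interaction 0.88, SE 0.17, from 22 to 53 reads; limma, adjusted p = 0.609). Reads on a gene this short in a library of fragments from long RNA need not come from the mature miRNA. The lowest unadjusted p of all tested genes by limma, 9.48e-05, belonged to MIR1249, which had 0 to 9 reads per library.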
